A study of Homo sapiens with 7 samples.

Results

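Interferon-stimulated genes are the genes that cells switch on after interferon has bound its receptor, and 39 of them were followed here across knockout clones of ASH1L and wild-type cells. The list was chosen by gene name from those classically assigned to the interferon response. Of these, 38 have a row in the table of 13142 genes, the level of IFITM1 is not analysed here, and 35 had levels high enough to be tested among 11154 genes. MX1, IRF7 and IRF9 were measured at low levels only and have values but no test.

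The cells are BHT-101, a human anaplastic thyroid cancer line, grown in DMEM with 10% serum, pyruvate and antibiotics, with no interferon or other stimulus named in the labels. ASH1L encodes a histone methyltransferase of the Trithorax group. Each of the 4 knockout (KO) lines is 1 clone with 1 RNA-seq library: both ASH1L alleles stop after residue 413 in KO1, after residue 610 in KO2 and after residue 2129 in KO3, while in KO4 the alleles stop after residues 2169 and 2174. They were set against 3 wild-type (WT) samples, which the labels give as biological replicates and which all clones share.

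Type I interferons bind IFNAR1 and IFNAR2, the kinases JAK1 and TYK2 are activated, and the complex ISGF3, to which STAT2 and IRF9 belong, binds the interferon-stimulated response element (ISRE) in promoters. Interferon gamma acts through IFNGR1 and IFNGR2 and on promoters with the gamma-activated site (GAS). The genes that follow encode sensors of viral RNA, proteins that block viral entry, translation or release, the ubiquitin-like modifier ISG15 with its enzymes, and factors that feed back on the pathway. Many are also transcribed at a basal level in cells that have met no virus.

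The values are log2 RPKM, that is log2 of reads per kilobase of gene and per 1e6 reads, so levels can be set side by side between genes. Differences are log2 values of KO minus WT with the standard error (SE) of the fit, and a gene was called when its adjusted p was under 0.05 in limma, adjusted over all 11154 tested genes. For 1 clone against WT the spread comes from the 3 WT samples alone, and a lone library is assumed to vary as they do, so such a call says that this library differs from WT and not that the knockout causes it. In bulk RNA, fewer cells with a transcript and less of it per cell cannot be told apart.

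As a group these genes did not move in 1 direction in the 4 clones: most stood above WT in KO2 and KO4 and below WT in KO3, and KO1 was mixed. Over the 35 genes, KO1 had a median difference from the WT mean of -0.02, KO2 one of 0.45, KO3 one of -0.43 and KO4 one of 0.43, against -0.10, 0.07 and 0.12 in the WT samples 1, 2 and 3. The medians of the clones had an SD of 0.419 and those of the WT samples an SD of 0.113. Over all tested genes the median lay between -0.02 and 0.01 in every library. With the clones as replicates, the members had a median KO minus WT difference of 0.05 and all tested genes one of -0.02.

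**Figure D1:**
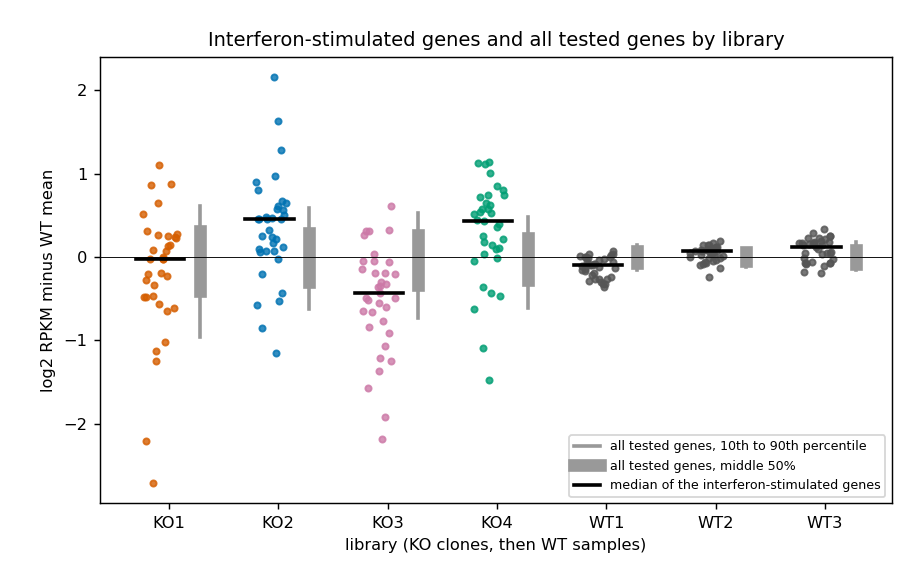
Difference of each of the 35 tested interferon-stimulated genes from its WT mean (log2 RPKM, vertical axis) in KO1 to KO4 and the 3 WT samples (horizontal axis); points are genes, black lines their medians and grey bars the middle 50% and the 10th to 90th percentiles of all 11154 tested genes. The medians of KO2 (0.45) and KO4 (0.43) lie above 0 and that of KO3 (-0.43) below it, while that of KO1 is -0.02.

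The sequences near the start sites show letters that most of these genes share. RefSeq promoters, running from 250 bases before to 50 bases after a start site on GRCh38.p14, were found for 33 of the 39 genes, IFITM1 among them, in 41 windows. The letters GAAA, any 2 letters and GAAA, read on either strand, were taken as ISRE letters, and a window for 23 of the 33 genes (69.7%) held them, against 4.38% of the 27305 genes with a window. TTC, any 3 letters and GAA, taken as GAS letters, were in a window for 10 of the 33 genes (30.3%), against 9.38% of all. A match is a string of letters and not a tested binding site. Nor does a window without a match lack an ISRE for certain, since the string is strict. The windows of OAS1 and DDX58, counted as without, hold GAAACGAAA, which is a letter shorter. In HERC5, IFI6, IFIH1 and IFIT5 a window held 3 ISRE matches, some of which overlap in HERC5 and IFIH1. DHX58, OAS2, OASL, IFIT2, IFITM2 and IRF7 had no entry.

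IFI6 is shown because its window holds 3 matches and its level was called in opposite directions in KO3 and KO4, and IFIT5 because it holds 3 and was the member called lower in every clone. DTX3L is shown because its single match lies in the stretch that its window shares with that of PARP9, its neighbour on the opposite strand. OAS3 and OAS1 are neighbours on chromosome 12 with and without the letters, and UBE2L6, the member that stood furthest above the other libraries in KO2, has 2 windows without them, of which 1 is printed. Capitals mark the ISRE letters, on the strand given or as TTTC, any 2 letters and TTTC where they lie on the other strand.
IFI6 (chr1:27672143-27672442, minus strand): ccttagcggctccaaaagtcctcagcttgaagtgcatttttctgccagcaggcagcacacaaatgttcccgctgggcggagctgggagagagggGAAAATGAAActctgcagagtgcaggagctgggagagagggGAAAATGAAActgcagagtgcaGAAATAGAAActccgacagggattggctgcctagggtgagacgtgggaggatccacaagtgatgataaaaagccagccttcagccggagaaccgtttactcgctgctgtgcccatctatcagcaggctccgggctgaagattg
IFIT5 (chr10:89414318-89414617, plus strand): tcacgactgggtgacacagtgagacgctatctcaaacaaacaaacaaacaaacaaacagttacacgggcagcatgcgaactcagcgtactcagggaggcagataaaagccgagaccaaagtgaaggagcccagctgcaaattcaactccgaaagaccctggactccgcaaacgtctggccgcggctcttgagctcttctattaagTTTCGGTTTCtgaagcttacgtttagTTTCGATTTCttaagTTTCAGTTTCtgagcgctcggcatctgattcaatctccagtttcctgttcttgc
DTX3L (chr3:122564088-122564387, plus strand): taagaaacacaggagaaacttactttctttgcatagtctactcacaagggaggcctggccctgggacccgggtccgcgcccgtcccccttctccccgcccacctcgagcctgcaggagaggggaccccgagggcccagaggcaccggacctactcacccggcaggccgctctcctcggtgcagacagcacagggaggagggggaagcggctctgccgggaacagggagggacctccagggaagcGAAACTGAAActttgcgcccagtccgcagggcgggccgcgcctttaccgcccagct
OAS3 (chr12:112938224-112938523, plus strand): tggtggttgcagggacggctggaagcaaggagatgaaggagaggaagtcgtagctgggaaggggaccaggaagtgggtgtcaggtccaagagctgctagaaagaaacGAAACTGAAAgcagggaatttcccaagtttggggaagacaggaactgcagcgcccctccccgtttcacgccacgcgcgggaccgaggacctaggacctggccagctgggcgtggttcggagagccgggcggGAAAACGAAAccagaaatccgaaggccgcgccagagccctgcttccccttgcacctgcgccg
OAS1 (chr12:112906712-112907011, plus strand): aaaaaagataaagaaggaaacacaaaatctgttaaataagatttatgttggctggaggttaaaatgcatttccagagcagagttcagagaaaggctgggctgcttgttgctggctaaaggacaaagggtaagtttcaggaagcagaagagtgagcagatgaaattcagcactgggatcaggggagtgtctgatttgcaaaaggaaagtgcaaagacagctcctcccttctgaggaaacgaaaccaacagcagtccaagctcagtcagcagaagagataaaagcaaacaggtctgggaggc
UBE2L6 (chr11:57567886-57568185, minus strand): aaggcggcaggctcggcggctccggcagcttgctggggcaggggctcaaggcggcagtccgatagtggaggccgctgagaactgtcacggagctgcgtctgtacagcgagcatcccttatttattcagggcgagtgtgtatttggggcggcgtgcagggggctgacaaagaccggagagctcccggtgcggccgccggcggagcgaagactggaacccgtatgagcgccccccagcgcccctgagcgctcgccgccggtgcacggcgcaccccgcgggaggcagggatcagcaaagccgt

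In DTX3L the match starts 6 bases before the start site, and the same 10 bases, chr3:122564332-122564341, lie 41 bases before the start site of PARP9. Members with and without the letters were called on both sides. Of the 14 members with a window that were called higher in KO2, 9 held ISRE letters, and of the 15 called lower in KO3 with a window, 12 did. Of the 14 with a window called higher in KO4, 11 held them, the exceptions being DDX58, HERC6 and UBE2L6.

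The question of the pooled comparison is whether loss of ASH1L shifts these genes in all clones. In limma with the 4 clones as replicates, 0 of the 35 genes were called higher and 0 lower, where 0.17% of all tested genes were called higher and 0.242% lower. At an unadjusted p under 0.05 there were 5, namely DHX58, HERC6, IFI44, IFIT5 and IFITM2, which is 14.3% of the members against 15.7% of all tested genes. The spread among clones was larger than among WT samples: the median SD of a member was 0.54 over the KO clones and 0.15 over the WT samples, against 0.30 and 0.10 for all tested genes. In 32 of the 35 members the SD over KO clones was the larger (91.4%), close to the 90.4% of all genes.

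In 3 members every KO clone stood above every WT sample and in 1 every clone stood below, which is 8.57% and 2.86% of the members against 8.88% and 10.1% of all tested genes. HERC6, a HECT-type ligase whose mouse counterpart attaches ISG15 to proteins, was at 1.11, 0.97, 0.26 and 1.11 log2 RPKM in KO1 to KO4, against 0.00, 0.07 and -0.07 in WT. All clones were above WT, KO3 by the least, and the pooled difference was 0.86 ± 0.26 (limma, adjusted p = 0.192). DHX58 (LGP2), a helicase that tunes the RNA sensors RIG-I and MDA5, was at 1.31, 2.06, 0.75 and 1.29 in KO1 to KO4, against 0.22, 0.39 and 0.69 in WT. The groups did not overlap, KO3 coming nearest to WT, and the pooled difference was 0.92 ± 0.31 (adjusted p = 0.222). IFI44 was at 5.59, 5.74, 5.89 and 6.02 in KO1 to KO4, against 5.20, 5.43 and 5.22 in WT. That difference, 0.53 ± 0.13, did not pass either (adjusted p = 0.143). IFIT5, an RNA-binding protein of the IFIT family, was at 2.71, 2.59, 2.33 and 2.70 in KO1 to KO4, against 3.04, 3.26 and 3.22 in WT, which made it the member that stood below WT in all clones (-0.59 ± 0.14, adjusted p = 0.125). Of its neighbours in the same gene cluster on chromosome 10, IFIT1, IFIT2 and IFIT3, none stood on 1 side of WT in all clones.

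Set against WT one at a time, the clones gave different members and different directions. In KO1, 5 of 35 members were called higher and 11 lower (14.3% and 31.4%), where 19.2% and 24.9% of all tested genes were. In KO2, 16 were called higher and 4 lower (45.7% and 11.4%), where 15.5% and 18% of all genes were. In KO3, 1 was called higher and 17 lower (2.86% and 48.6%), where 14.2% and 19.9% of all genes were. In KO4, 15 were called higher and 5 lower (42.9% and 14.3%), where 10.4% and 14.4% of all genes were. The share called higher was well above that of all genes in KO2 and KO4, as was the share called lower in KO3, whereas the other shares were nearer to or under it. Without the second WT sample the calls were 3 higher in KO1, 2 lower in KO2, and 6 higher and 2 lower in KO4. Of all 11154 tested genes, 1150, 966, 423 and 730 were called in that order, so calls fell over all genes too. Without the third there were 2 higher in KO3, where 2140 of all tested genes were.

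**Figure D2:**
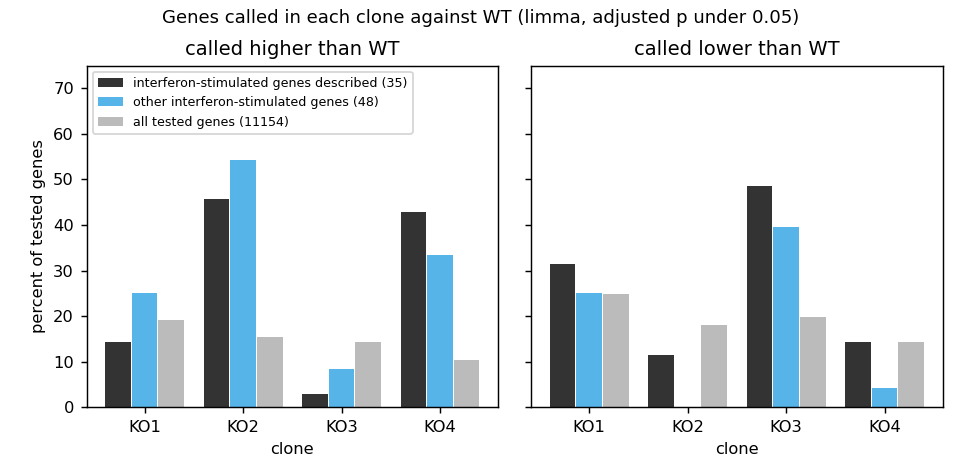
Percent of genes called higher (left) and lower (right) than WT in each clone (limma, adjusted p under 0.05) for the 35 tested interferon-stimulated genes described here, for 48 other interferon-stimulated genes and for all 11154 tested genes. The described genes reach 45.7% higher in KO2 and 42.9% in KO4, and 48.6% lower in KO3.

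Signs of all 35 members, called or not, followed the same split. In KO2, 28 members lay above the WT mean (80%, against 49% of all genes), and in KO4 27 did (77.1%, against 49.2%). In KO3, 29 lay below it (82.9%, against 51.6%), and in KO1 16 lay above and 19 below. KO4 was the highest of the 7 libraries for 16 members (45.7%, against 10.9% of all genes) and the lowest for 0. KO2 was the highest for 13 (37.1%, against 20.9%). KO3 was the lowest for 17 members (48.6%, against 19.7%), and KO1 the highest for 0.

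Direct differences between clones do not involve the shared WT samples, and with 1 library each they have no test. KO2 was above KO3 in 31 of 35 members, with a median difference of 0.81, where 49.7% of all genes were. KO3 was below KO4 in 32 of 35, with a median of -0.86, where 48.9% of all genes were, although the stops of these clones lie near each other in ASH1L. KO1 was below KO2 in 25 and below KO4 in 30, and above KO3 in 25. KO2 and KO4 were alike in count, with KO2 the higher in 16 members and the lower in 19. The WT samples also differed in this gene set: the second was above the first in 30 of 35 members (85.7%, against 52.6% of all genes), by a median of 0.14.

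In 10 members (28.6%, against 12.8% of all tested genes) calls went in opposite directions in different clones: IFI6, IFIT1, OAS1, OAS3, IFIH1, PARP9, PARP14, DTX3L, SAMD9 and SP110. When the second WT sample was left out, this held for 2 of them, IFI6 and DTX3L (5.71%, against 4.62% of all genes), a share near that of all genes. HERC6, IFI44 and DHX58 were called higher in 3 clones, and no member in 4. IFI44L, IFITM2, IFITM3, OAS1, OAS3 and BST2 were called lower in 3 clones, and IFIT5 in all 4. The share of all tested genes called the same way in 3 or 4 clones is not given here. These recurring calls, made against shared WT samples, are therefore not a result about the members. ISG20, IFIT2, STAT2 and EIF2AK2 were called in no clone (11.4%, against 29.5% of all genes).

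**Figure D3:**
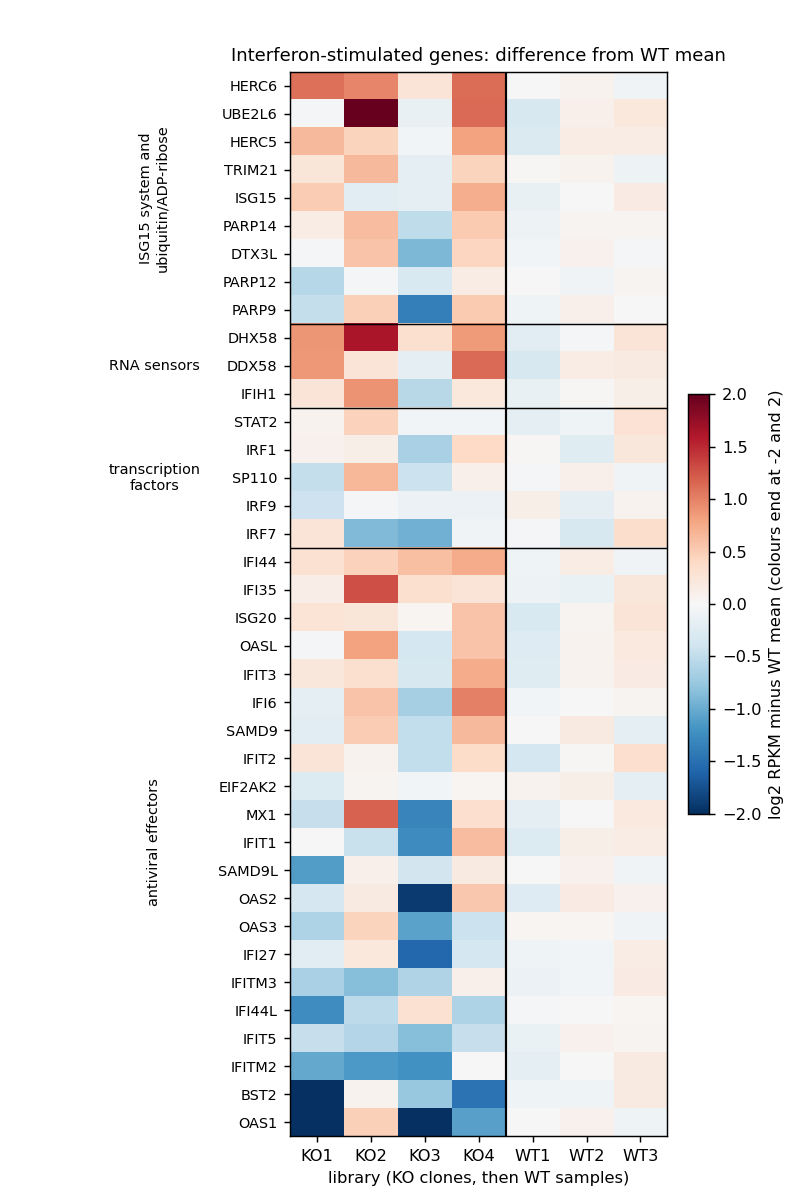
Difference from the WT mean (log2 RPKM, colour, ending at -2 and 2) for the 38 measured genes (rows, by role) in the 4 KO clones and the 3 WT samples (columns). KO2 and KO4 are mainly red, KO3 is mainly blue, and the lowest values are those of OAS1 and BST2 in KO1 and of OAS1 in KO3.

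The antiviral effectors held the largest differences. Of the 20 tested, 0 were called higher and 8 lower in KO1 (0% and 40%, against 19.2% and 24.9% of all tested genes), and 7 and 4 in KO2 (35% and 20%, against 15.5% and 18%). In KO3 1 was called higher and 12 lower (5% and 60%, against 14.2% and 19.9%), and in KO4 5 and 5 (25% each, against 10.4% and 14.4%). The oligoadenylate synthetases, which sense double-stranded RNA and make a small messenger in response, differed among themselves. OAS1 was at -0.64, 2.55, -0.11 and 0.97 log2 RPKM in KO1 to KO4, against 2.06, 2.16 and 1.99 in WT. KO1, KO3 and KO4 were below every WT sample and KO2 above, with differences of -2.71 ± 0.14 in KO1 (6.55-fold lower, adjusted p = 2.36e-05), -2.18 ± 0.14 in KO3 (4.54-fold lower, adjusted p = 0.00021), -1.09 ± 0.14 in KO4 (adjusted p = 0.00313) and 0.48 ± 0.14 in KO2 (adjusted p = 0.0419). OAS2 was at 0.71, 1.21, -0.88 and 1.59 in KO1 to KO4, against 0.78, 1.21 and 1.13 in WT. It was lower in KO3 by 1.58 log2 units than in any other library (-1.92 ± 0.21 against WT, adjusted p = 0.00135) and was not called in another clone.

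OAS3, which lies between OAS1 and OAS2, was at 2.62, 3.69, 2.16 and 2.80 in KO1 to KO4, against 3.27, 3.27 and 3.16 in WT. It had the same signs as OAS1 in each clone and smaller differences, between -1.07 in KO3 and 0.45 in KO2, all called. OASL, a relative without the synthetase activity that lies apart on the same chromosome, was at 4.50, 5.32, 4.17 and 5.09 in KO1 to KO4, against 4.26, 4.59 and 4.71 in WT. It was called in KO2 only (0.80 ± 0.18, adjusted p = 0.0176), with KO4 at 0.57 ± 0.18 (adjusted p = 0.0584). The 61 tested genes within 5 Mb of OAS1 had a median difference of -0.27 in KO1, and of -0.04, -0.15 and -0.12 in KO2 to KO4. Around OAS2 the median in KO3 was -0.15 as well. In size, the OAS1 and OAS2 differences named above exceeded these medians, and the cause was not tested. Without the second WT sample, OAS1 in KO2 and OAS3 in KO2 and KO4 were no longer called (adjusted p = 0.118, 0.0881 and 0.139), and OAS1 in KO2 was not called without the first either (adjusted p = 0.0585). With neighbours subtracted, OAS3 was not called in KO1 and KO4 (-0.34 and -0.31, adjusted p = 0.0638 and 0.116).

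BST2 (tetherin), which holds budding virus particles at the cell surface, was at 3.96, 6.24, 5.41 and 4.69 log2 RPKM in KO1 to KO4, against 6.09, 6.08 and 6.34 in WT. KO2 was level with WT and the other clones were below every WT sample, with differences of -2.21 ± 0.13 in KO1 (4.62-fold lower, adjusted p = 4.2e-05), -0.76 ± 0.13 in KO3 (adjusted p = 0.00712) and -1.48 ± 0.13 in KO4 (2.79-fold lower, adjusted p = 0.000747). KO4 therefore had a low BST2 while most other members stood above WT there. The genes within 5 Mb had a median difference of 0.35 in KO1, 0.26 in KO3 and 0.07 in KO4.

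The IFITM proteins sit in membranes and hinder the fusion of entering viruses. IFITM3 had the highest WT mean of all members, with 6.69, 6.48, 6.73 and 7.44 log2 RPKM in KO1 to KO4, against 7.22, 7.29 and 7.50 in WT. It was called lower in KO1, KO2 and KO3 (-0.65, -0.85 and -0.60) and not in KO4 (0.11 ± 0.13, adjusted p = 0.58). IFITM2 was at 4.45, 4.32, 4.26 and 5.46, against 5.30, 5.46 and 5.66 in WT. KO4 was again the highest clone: the differences were -1.02 ± 0.15 in KO1, -1.15 ± 0.15 in KO2 and -1.22 ± 0.15 in KO3, with adjusted p between 0.00201 and 0.00281, and -0.01 ± 0.15 in KO4. IFITM2 and IFITM3 are near-identical, and 22.7% of the exonic bases of IFITM2 are shared with IFITM1 in GENCODE 29, so the split of reads between them is uncertain. KO2 was thus low in both IFITM genes although 28 of 35 members were above WT in it. IFITM3 in KO3 was not called without the second WT sample (adjusted p = 0.0588).

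The IFIT proteins bind foreign RNA and block its translation. IFIT1 was at 3.80, 3.36, 2.55 and 4.42 log2 RPKM in KO1 to KO4, against 3.53, 3.92 and 3.95 in WT. KO2 and KO3 were below and KO4 above every WT sample, with differences of -0.44 ± 0.18 in KO2 (not called, adjusted p = 0.103), -1.25 ± 0.18 in KO3 (2.38-fold lower, adjusted p = 0.00374) and 0.62 ± 0.18 in KO4 (adjusted p = 0.048). IFIT3 was called higher in KO4 only (0.74 ± 0.16, adjusted p = 0.0205), and IFIT2 ranged between 4.18 in KO3 and 5.04 in KO4, against 4.32 to 5.01 in WT. IFIT5 was called lower in each clone, by differences between -0.84 in KO3 and -0.46 in KO1. IFIT genes are paralogs, and reads shared between them are uncertain too. Without the second WT sample, IFIT1 and IFIT3 in KO4 were not called (adjusted p = 0.096 and 0.0598), nor was IFIT5 in KO1, KO2 and KO4 (adjusted p = 0.106, 0.0774 and 0.156).

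IFI27, a small mitochondrial membrane protein of the same family as IFI6, was at 1.21, 1.63, -0.16 and 1.06 in KO1 to KO4, against 1.32, 1.36 and 1.57 in WT. KO3 was 1.22 log2 units below the next library (-1.58 ± 0.16 against WT, 2.98-fold lower, adjusted p = 0.00106) and the other clones were not called. IFI6, which protects cells from apoptosis and hinders flavivirus replication, was at 3.39, 4.14, 2.91 and 4.58, against 3.52, 3.58 and 3.62 in WT. It was called higher in KO2 (0.56 ± 0.10) and KO4 (1.01 ± 0.10, 2.01-fold higher, adjusted p = 0.00121) and lower in KO3 (-0.66 ± 0.10, adjusted p = 0.00502). IFI44L and IFI44 are adjacent on chromosome 1 and went apart. IFI44L was at 0.15, 0.88, 1.71 and 0.78 in KO1 to KO4, against 1.36, 1.41 and 1.44 in WT, and was called lower in KO1 (-1.25 ± 0.14, adjusted p = 0.000739), KO2 and KO4 (-0.53 and -0.62). IFI44 was called higher in KO2, KO3 and KO4 (0.46, 0.61 and 0.74), with KO1 at 0.31 ± 0.12 (adjusted p = 0.0804). IFI44L in KO2 and KO4 was not called without the second WT sample (adjusted p = 0.123 and 0.109).

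IFI35, a partner of NMI in cytokine signalling, was at 2.98, 4.14, 3.17 and 3.11 in KO1 to KO4, against 2.75, 2.71 and 3.08 in WT. KO2 stood above all other libraries and was the only clone called (1.29 ± 0.16, 2.44-fold higher, adjusted p = 0.00286). SAMD9 and its neighbour SAMD9L, restriction factors of poxviruses, were at 3.49, 4.23, 3.23 and 4.37 and at 1.93, 3.15, 2.69 and 3.23 in KO1 to KO4, against 3.54 to 3.91 and 2.98 to 3.13 in WT. SAMD9L was called lower in KO1 (-1.12 ± 0.11), where the 30 genes within 5 Mb had a median of -0.91. With neighbours subtracted it was not called (-0.21, adjusted p = 0.183). SAMD9 was not called in KO1 (-0.23 ± 0.15, adjusted p = 0.254), although its neighbours had a median of -0.97. EIF2AK2 (PKR), the kinase that halts translation on double-stranded RNA, was at 2.52 to 2.86 in the KO clones and 2.61 to 2.91 in WT, and ISG20, an exonuclease, at 0.33 to 0.86 and -0.01 to 0.54. MX1, a GTPase that traps viral ribonucleoproteins, was at -1.47, 0.17, -2.33 and -0.67 in KO1 to KO4, against -1.21, -1.02 and -0.81 in WT. It was too low to be tested, with KO2 and KO4 above and KO1 and KO3 below all WT samples.

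**Figure D4:**
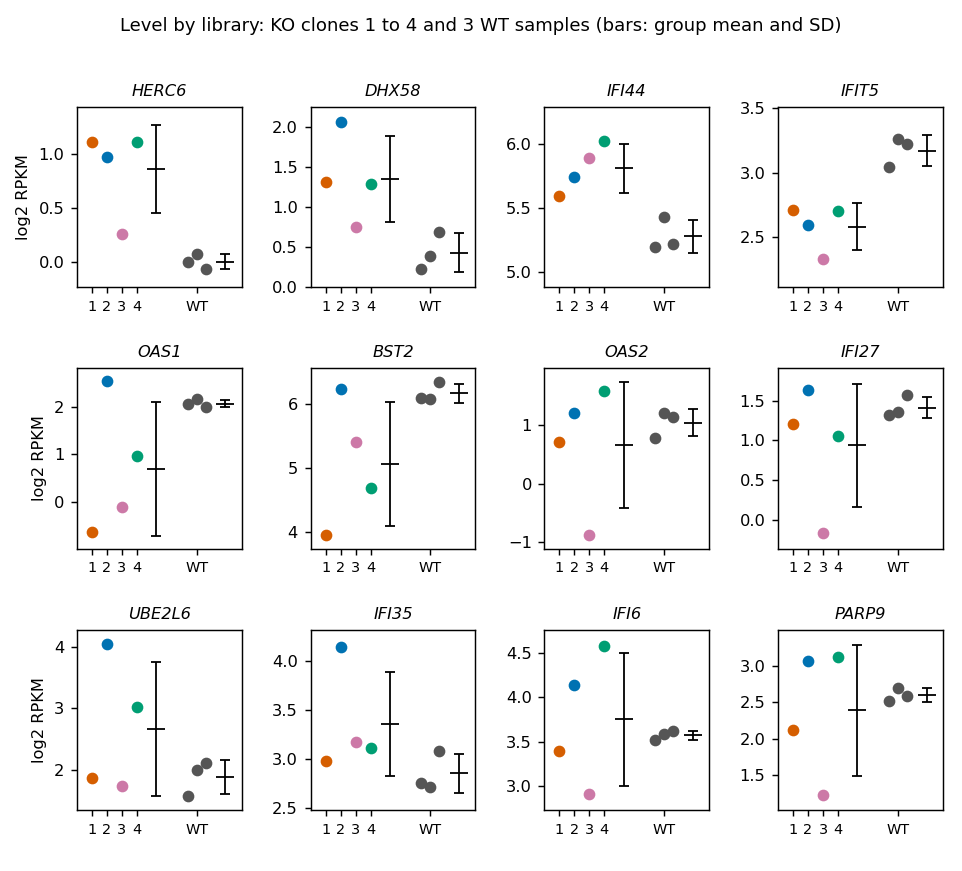
Level (log2 RPKM, vertical axis) of 12 interferon-stimulated genes in KO clones 1 to 4 (coloured points) and 3 WT samples (grey points); black marks are group means and SD, n = 4 KO clones and n = 3 WT samples. HERC6, DHX58 and IFI44 lie above and IFIT5 below all WT samples in every clone, while OAS2 and IFI27 are low in KO3 alone and UBE2L6 is highest in KO2 (4.05).

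The ISG15 system and the ubiquitin and ADP-ribose enzymes were mainly called higher in KO2 and KO4. Of 9 genes, 6 were called higher and 0 lower in KO2 (66.7% and 0%, against 15.5% and 18% of all tested genes) and 8 and 0 in KO4 (88.9% and 0%, against 10.4% and 14.4%). In KO1 3 were called higher and 2 lower (33.3% and 22.2%, against 19.2% and 24.9% of all genes). In KO3 0 were called higher and 3 lower (0% and 33.3%, against 14.2% and 19.9%). In KO1 and KO3 these shares are within a few genes of those of all genes. ISG15, the modifier itself, was at 6.41, 5.69, 5.71 and 6.62 log2 RPKM in KO1 to KO4, against 5.75, 5.89 and 6.06 in WT. It was called higher in KO1 (0.51 ± 0.13, adjusted p = 0.0224) and KO4 (0.72 ± 0.13, adjusted p = 0.0117), while KO2 and KO3 were below all WT samples without being called. UBE2L6, the conjugating enzyme for ISG15, was at 1.88, 4.05, 1.74 and 3.03, against 1.58, 2.00 and 2.11 in WT. KO2 was 1.02 log2 units above the next library, which was KO4, and KO1 and KO3 lay within the WT range. The differences were 2.15 ± 0.21 in KO2 (4.45-fold higher, adjusted p = 0.00121) and 1.14 ± 0.21 in KO4 (2.20-fold higher, adjusted p = 0.012). ISG15 was not called without the second WT sample (adjusted p = 0.0763 in KO1 and 0.0547 in KO4), nor in KO1 with its neighbours' median subtracted (adjusted p = 0.178).

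HERC5, the main ligase for ISG15 in human cells, was at 4.36, 4.17, 3.66 and 4.52 in KO1 to KO4, against 3.42, 3.86 and 3.86 in WT, and was called higher in KO1 and KO4 (0.65 and 0.80). HERC6, next to it on chromosome 4, was called higher in KO1, KO2 and KO4 by 1.11, 0.97 and 1.11, each ± 0.16, with adjusted p between 0.0025 and 0.00696. In KO1 and KO4 the modifier ISG15 and both HERC genes were thus called higher, and in KO2 ISG15 was not. TRIM21, an intracellular antibody receptor and ubiquitin ligase, was called higher in KO2 (0.65 ± 0.11) and KO4 (0.44 ± 0.11). Without the second WT sample, HERC5 and TRIM21 in KO4 were not called (adjusted p = 0.053 and 0.101), and with neighbours subtracted HERC5 was called in neither clone (adjusted p = 0.0818 and 0.0511).

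PARP9 and DTX3L form an ADP-ribosyl and ubiquitin transferase pair and share the stretch of promoter printed above. PARP9 was at 2.12, 3.07, 1.23 and 3.12 in KO1 to KO4, against 2.52, 2.70 and 2.59 in WT. DTX3L was at 4.20, 4.80, 3.32 and 4.66, against 4.17, 4.31 and 4.21 in WT. Both were above all WT samples in KO2 and KO4 and below them in KO3, where the differences were -1.37 ± 0.12 (2.58-fold lower, adjusted p = 0.000672) and -0.91 ± 0.10 (adjusted p = 0.00168). In KO1 they parted, since PARP9 was called lower (-0.48 ± 0.12, adjusted p = 0.0207) and DTX3L was level with WT (-0.02 ± 0.10). Their exons overlap on opposite strands over 2.4% and 3.7% of their lengths, and the strand setting of the counting is not given. PARP14, on the same part of chromosome 3, had the signs of DTX3L in KO2, KO3 and KO4 (0.61, -0.51 and 0.53). PARP12 was called in KO1 only (-0.56 ± 0.10, adjusted p = 0.00619), where the 40 genes within 5 Mb had a median of -0.72. Without the second WT sample, PARP9 in KO1, KO2 and KO4 (adjusted p = 0.0898, 0.0755 and 0.0774), DTX3L in KO4 (0.0858) and PARP14 in KO3 and KO4 (0.0846 and 0.0777) were not called.

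Of the RNA sensors, DDX58 (RIG-I) was at 4.08, 3.47, 3.02 and 4.35 log2 RPKM in KO1 to KO4, against 2.89, 3.36 and 3.40 in WT. It was called higher in KO1 (0.87 ± 0.20, adjusted p = 0.0155) and KO4 (1.13 ± 0.20, 2.19-fold higher, adjusted p = 0.0108), with KO3 inside the WT range. IFIH1 (MDA5) was at 1.73, 2.38, 0.92 and 1.69, against 1.33, 1.50 and 1.59 in WT. It was called higher in KO2 (0.90 ± 0.15, adjusted p = 0.00676) and lower in KO3 (-0.55 ± 0.15, adjusted p = 0.0326). The clones that were called higher for DDX58 therefore differed from the one called higher for IFIH1. DHX58 was called higher in KO1, KO2 and KO4 (0.88, 1.63 and 0.86, each ± 0.21), and 115 genes within 5 Mb of it had medians of 0.40, 0.35 and 0.32 there and 0.39 in KO3. With neighbours subtracted, DHX58 in KO1 and KO4 (adjusted p = 0.125 and 0.126), DDX58 in KO1 (0.265) and IFIH1 in KO3 (0.0738) were not called, and without the second WT sample DHX58 in KO1 and KO4 (0.054 and 0.102) and IFIH1 in KO3 (0.119) were not.

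Of the transcription factors, STAT2 was at 2.06, 2.44, 1.93 and 1.94 in KO1 to KO4, against 1.79, 1.90 and 2.27 in WT, and was called in no clone. IRF9, the DNA-binding subunit of ISGF3, had the lowest WT mean of all members, with -2.14, -1.75, -1.85 and -1.85 in KO1 to KO4, against -1.61, -1.92 and -1.67 in WT. Groups overlapped, and 48.4% of its exonic bases are shared with AL136295.5 on the same strand in GENCODE 29, so its level is uncertain. IRF1, induced by interferon gamma, was at 2.98, 3.02, 2.25 and 3.30, against 2.92, 2.65 and 3.12 in WT, and was called lower in KO3 (-0.65 ± 0.18, adjusted p = 0.0366). IRF7, the amplifier of interferon alpha transcription, ranged between -0.97 and 0.24 in the KO clones and between -0.34 and 0.34 in WT. SP110, a nuclear body protein, was called higher in KO2 (0.67 ± 0.15, adjusted p = 0.0172) and lower in KO1 (-0.48 ± 0.15, adjusted p = 0.0382). IRF1 in KO3 was not called with neighbours subtracted (adjusted p = 0.231), and SP110 in KO2 and KO1 was not called without the second WT sample (adjusted p = 0.059 and 0.148).

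Of 20 interferon genes that were looked up, 0 have a row in the table, and they are not analysed here. Of the 9 receptor chains and kinases, 0 were called in the pooled comparison, and 0 were called higher and 5 lower in KO1 and 1 and 4 in KO3, where the lower shares of 55.6% and 44.4% stand against 24.9% and 19.9% of all tested genes. With 2 higher and 1 lower in KO2 (22.2% and 11.1%, against 15.5% and 18%) and 0 and 2 in KO4 (0% and 22.2%, against 10.4% and 14.4%), the shares there differ from those of all genes by 1 or 2 genes. IFNAR2, the signalling chain of the type I receptor, was at 1.66, 3.46, 2.55 and 2.14, against 3.22, 3.40 and 3.53 in WT. KO2 was level with WT and the other clones were below every WT sample, by -1.72, -0.84 and -1.24 in KO1, KO3 and KO4 (adjusted p = 0.000205, 0.00716 and 0.00207). Its exons overlap those of AP000295.1 on the same strand over 44.2% of their length, so reads of the pair cannot be told apart. IFNAR2, IL10RB and IFNGR2 lie close together on chromosome 21. All are among the 5 called lower in KO1, and IFNAR2 and IFNGR2 are among the 4 in KO3. The lower shares therefore rest in part on 1 stretch of chromosome, and medians of neighbours are not given for these genes.

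IFNAR1 was at 3.72, 3.99, 3.50 and 3.69 in KO1 to KO4, against 3.58, 3.69 and 3.58 in WT, and was called higher in KO2 (0.37, adjusted p = 0.0349). IFNGR1 was called lower in KO1 and KO3 (-0.66 and -0.54), and IFNGR2 in KO1, KO3 and KO4 (-0.36, -0.67 and -0.61). JAK1 was called lower in KO3 (-0.42, adjusted p = 0.0211) and TYK2 higher there (0.59, adjusted p = 0.0166), and JAK2 was called in no clone. IFNLR1, the lambda receptor chain, was called lower in KO1 and KO2 (-2.13 and -1.03), and its partner IL10RB lower in KO1 (-0.43) and higher in KO2 (0.56), with 38.1% of the exonic bases of IL10RB also shared with AP000295.1, so that its values are uncertain as well. KO4, with 27 of 35 members above WT, had IFNAR2 and IFNGR2 below WT.

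**Figure D5:**
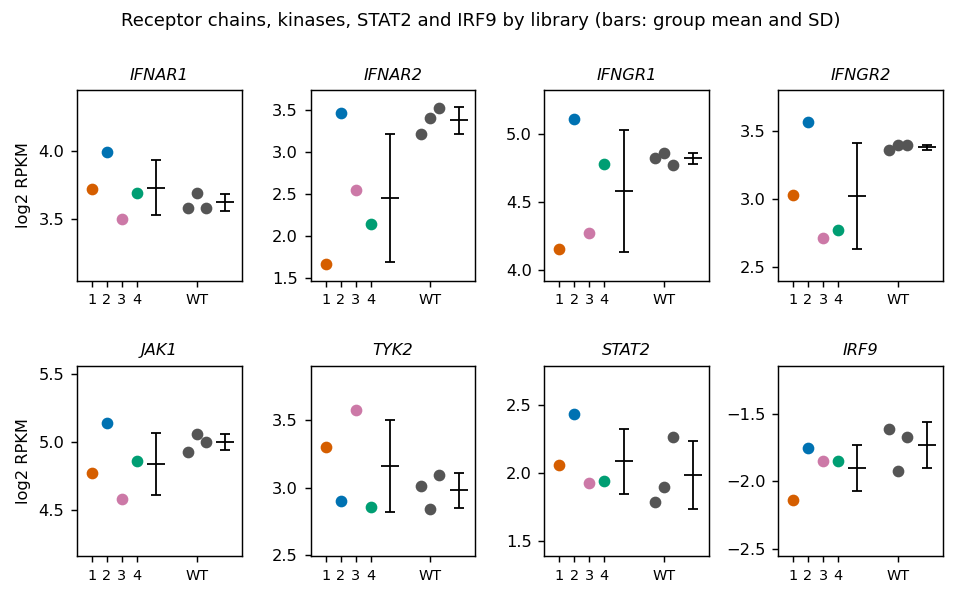
Level (log2 RPKM, vertical axis) of interferon receptor chains, kinases and the ISGF3 subunits STAT2 and IRF9 in KO clones 1 to 4 (coloured points) and 3 WT samples (grey points); black marks are group means and SD, n = 4 KO clones and n = 3 WT samples. IFNAR2 is at 1.66, 2.55 and 2.14 in KO1, KO3 and KO4 and at 3.46 in KO2, against 3.22 to 3.53 in WT, while STAT2 and IRF9 overlap WT.

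Among 14 tested signal factors and brakes, 0 were called in the pooled comparison, and 3 were called higher and 4 lower in KO1 (21.4% and 28.6%, against 19.2% and 24.9% of all tested genes), 4 and 2 in KO2 (28.6% and 14.3%, against 15.5% and 18%), 2 and 2 in KO3 (14.3% each, against 14.2% and 19.9%), and 2 and 0 in KO4 (14.3% and 0%, against 10.4% and 14.4%). Most of these shares lie near those of all genes, and the genes that follow are given for their role, not as a result about the list. SOCS3, an inhibitor of JAK signalling, was at 1.07, 3.16, 1.23 and 2.47 in KO1 to KO4, against 2.51, 2.77 and 3.07 in WT, and was called lower in KO1 and KO3 (-1.71 and -1.55). USP18, which strips ISG15 from proteins and blocks IFNAR2 signalling, was at -1.14, 1.22, 1.31 and 0.31, against 0.44, 0.14 and 0.50 in WT. It was called lower in KO1 (-1.51) and higher in KO2 and KO3 (0.86 and 0.95), so that in KO3 it stood above WT while 29 of 35 members stood below. USP18 has a close copy, USP41, and the split of reads between them is uncertain. IRF2, a competitor of IRF1, was called higher in KO2 (0.86, adjusted p = 0.00275), and STAT3 and the phosphatase PTPN1 were called higher in KO4 (0.47 and 0.44). PIAS1 was called higher in KO2 (0.65) and PIAS4 in KO1 and KO3 (0.97 and 0.57). BCL6, a repressor, was called in no clone.

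Among 20 tested genes of the sensing pathway, 0 were called in the pooled comparison, and 5 were called higher and 6 lower in KO1 (25% and 30%, against 19.2% and 24.9% of all tested genes), 5 and 3 in KO2 (25% and 15%, against 15.5% and 18%), 5 and 6 in KO3 (25% and 30%, against 14.2% and 19.9%), and 3 and 1 in KO4 (15% and 5%, against 10.4% and 14.4%). These shares too are within a few genes of those of all genes. TMEM173 (STING), the adaptor of DNA sensing, was at 3.91, 4.64, 3.61 and 5.24 in KO1 to KO4, against 4.98, 4.98 and 5.28 in WT, and was called lower in KO1 and KO3 (-1.17 and -1.47). IRF5 was called lower in KO1 and KO3 (-2.14 and -0.88) and higher in KO2 (1.10), and the kinase IKBKE lower in KO1 and KO4 (-1.36 and -0.86). MAVS, the adaptor of RIG-I and MDA5, was called higher in KO2 and KO4 (0.39 and 0.37) and lower in KO3 (-0.62). TRAF6 and TRAF3 were called higher in KO1 (0.61 and 0.68), TRAF6 also in KO4 and TRAF3 in KO3, and TRIM25, which activates RIG-I, lower in KO3 (-0.62, adjusted p = 0.0374).

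A further list of 58 interferon-stimulated genes, of which 55 are in the table and 48 were tested, was mainly called higher in KO2 and KO4 and lower in KO3. In KO2 26 were called higher and 0 lower (54.2% and 0%, against 15.5% and 18% of all tested genes), in KO3 4 and 19 (8.33% and 39.6%, against 14.2% and 19.9%), and in KO4 16 and 2 (33.3% and 4.17%, against 10.4% and 14.4%). In KO1 12 were called higher and 12 lower (25% each), near the 19.2% and 24.9% of all genes. TRIM22, PARP11, RTP4 and TRANK1, counted as higher in KO1, KO2 and KO4, passed the filter on levels only through these clones. Outside them RTP4 and TRANK1 were above 0 in the third WT sample alone, at 0.01. The calls of these genes there are therefore no support for the counts. The medians of the list were 0.09, 0.56, -0.32 and 0.23 in KO1 to KO4. In the pooled comparison 0 were called, where 19 of all tested genes were called higher. Without KO3, 3 of the 48 were called higher, where 40 of all tested genes were. KO3 is the clone in which this list was mainly called lower, so these 3 calls are not a separate result. Without the second WT sample the calls were 16 higher in KO2, 7 lower in KO1, 1 higher in KO3, and 8 higher and 1 lower in KO4. Of all 11154 tested genes, 777, 1938, 574, 423 and 730 were called in that order. Without the third 8 were called higher in KO3, where 2140 of all tested genes were. ZNFX1, a helicase-like RNA sensor, was at 4.16, 4.15, 3.99 and 4.20 in KO1 to KO4, against 3.66, 3.58 and 3.55 in WT, and was called higher in each clone (0.39 to 0.61), with a pooled difference of 0.53 ± 0.10 (adjusted p = 0.085). RNF213, a ubiquitin ligase, was at 2.76, 2.96, 2.40 and 2.98, against 1.95, 2.05 and 2.17 in WT. PLSCR1, a scramblase that restricts viral entry, was at 3.15, 3.41, 2.81 and 3.24, against 3.61, 3.75 and 3.82 in WT, below all WT samples in every clone, and was called lower in KO1, KO3 and KO4.

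TRIM22 differed from WT by more than any of the 35 did. TRIM22, an antiviral ubiquitin ligase, was at 1.32, 1.30, -2.52 and 0.97 log2 RPKM in KO1 to KO4, against -2.08, -2.12 and -2.73 in WT. KO1, KO2 and KO4 were far above WT (3.63, 3.61 and 3.28) and KO3 inside its range. WT and KO3 lay below the filter on levels, so TRIM22 was tested only because those clones were high. Its calls there are therefore no support, and its differences are measured from a low WT level. GBP2, a guanylate-binding protein of the interferon gamma response, was at 0.25, 4.16, 1.34 and 2.55, against 2.66, 2.77 and 2.73 in WT. It was called lower in KO1 and KO3 (-2.47 and -1.38) and higher in KO2 (1.44). GBP4 was called higher in KO2 and KO4 (2.62 and 1.39) and lower in KO3 (-0.86), and TNFSF10 (TRAIL), a death ligand, likewise (2.33, 2.25 and -1.22). RSAD2 (viperin), an inhibitor of viral RNA synthesis, was called lower in KO3 (-2.05) and higher in KO4 (1.01), and APOL1 lower in KO1, KO3 and KO4 (-1.80, -1.55 and -0.76) and higher in KO2 (0.49).

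Genes that stood at least 1 log2 unit outside the other 6 libraries in 1 clone were few among the 35. There were 0 in KO1, where 3.86% of all tested genes were set apart, 1 in KO2 (2.86%, against 2.14%), 2 in KO3 (5.71%, against 1.27%) and 0 in KO4, where 0.394% of all were. They were UBE2L6 in KO2, higher, and IFI27 and OAS2 in KO3, lower. At these numbers the shares are single genes, and on the log2(RPKM + 1) scale none of the 3 reached the 1-unit gap.

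The whole series gives some context. ASH1L itself was at 2.69, 2.54, 2.42 and 3.74 log2 RPKM in KO1 to KO4, against 3.34, 3.30 and 3.22 in WT (-0.44 ± 0.31, adjusted p = 0.512), so KO4 was the highest library; a premature stop need not lower a transcript, and the edits themselves cannot be read from these values. Of 11 thyroid follicular markers 2 are in the table, PAX8 and DIO2, and of 14 leukocyte markers 3, whose summed RPKM ranged between 0.675 and 3.18 in the KO clones and between 9.64 and 12.3 in WT, most of it from CD3D in WT. The defining leukocyte marker PTPRC is not among the rows. Of 14 fibroblast or endothelial markers 4 are in the table (sums of 20.4 to 70.2 in KO and 51.4 to 55.4 in WT), and all 5 epithelial markers (233 to 576 in KO and 487 to 583 in WT). Of these 5, 5 were called lower in KO1 (100%, against 24.9% of all tested genes). In KO3 and KO4 4 each were called lower (80%, against 19.9% and 14.4%). KO2 had 2 higher and 1 lower (40% and 20%, against 15.5% and 18%). The part of these differences in the interferon-stimulated genes was not tested.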

How the data were processed

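RNA-seq libraries were made from total RNA with an Illumina TruSeq kit, per the labels' protocols, from 4 KO clones and 3 WT samples. The authors deposited 1 table of log2 RPKM for 13142 genes. The submitters' processing notes name STAR 2.5.3a, Trim Galore 0.4.1, edgeR and HTSeq 0.11.2, and build hg38; the annotation, prior count, filter and strand setting are not given in the sources used here. Read totals are not part of the table, so depth is unknown, and only 7 genes share their lowest value in 2 or more libraries within 1e-06, so whole reads were not recovered and no count test was run.

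Genes with log2 RPKM above 0 in at least 3 of 7 libraries (11154) were fitted with limma 3.58.1 in R 4.3.3 (eBayes with a variance trend, Benjamini-Hochberg adjustment over all of them, adjusted p under 0.05), with no further scaling or pseudocount. KO clones were compared with WT as replicates, and each clone with WT with the WT spread. The p-values measure the spread between these samples, and clones are single libraries. The fits were run on simulated data with the WT spread in both groups, to see that set differences were recovered. The KO clones here spread more than that, so the run does not give the error rate of the calls. The members and the gene lists were chosen with earlier results of these data known. Full values are given for members set apart in 1 clone, the 3 members per direction and clone with the largest called difference, 9 members in any case (ISG15, IFIT1, MX1, OAS1, STAT2, IRF9, IRF1, DDX58, IFIH1), those with the highest and lowest WT mean, receptors and kinases, and in other lists the 4 smallest unadjusted p and the 2 largest called differences per clone. Other genes named, among them PARP9, DTX3L, IFI6, OAS3 and MAVS where they fall outside this rule, were chosen after their values were seen. Some genes that the rule covers are not reported here.

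Positions and exon overlaps with other coding genes come from GENCODE 29 (12523 of 13142 genes, 95.3%, matched, 213 of them through synonyms). Neighbour medians are over tested genes within 5 Mb. Alternatives covered the filter, the scale, normalization, the variance trend, neighbours, a replicate block and each library left out.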

Additional observations from a re-analysis of the deposited data

Results flagged for a closer look

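Among the 38 measured genes, 3 had 1 KO clone far from the other 3 by Dixon's ratio of the gap to the range above its critical value for 4 samples, a criterion that chance meets in about 1 of 20 groups. HERC6 was lowest in KO3, at 0.26 log2 RPKM, with the other clones at 0.97 to 1.11 (ratio 0.835). IFI35 was highest in KO2, at 4.14, with the others at 2.98 to 3.17 (ratio 0.840). IFITM2 was highest in KO4, at 5.46, with the others at 4.26 to 4.45 (ratio 0.841), and this KO4 level lay inside the WT range of 5.30 to 5.66.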

How the results depend on the processing

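With each WT sample left out in turn, members called ranged over 3 to 5 higher and 8 to 13 lower in KO1. They ranged over 11 to 17 and 2 to 5 in KO2, 1 to 2 and 12 to 19 in KO3, and 6 to 20 and 2 to 5 in KO4. Of all 11154 tested genes, 3088, 1743, 1706 and 1153 were called in either direction in KO1 to KO4 without the second WT sample. Without the third, 5833, 4867, 4906 and 3972 were, so calls moved widely over all genes too. In the pooled comparison each clone was left out in turn as well, and 0 members were called each time. However, 0 of all tested genes were called without any 1 of the WT samples and 1 without KO4, so those counts say nothing about stability. The other interferon-stimulated genes called ranged over 10 to 15 higher and 7 to 13 lower in KO1, 16 to 30 and 0 to 2 in KO2, 1 to 8 and 13 to 23 in KO3, 8 to 22 and 1 to 3 in KO4, and 0 to 3 higher in the pooled comparison. The swing over all tested genes given above applies to these clone counts as well. With WT samples left out, median differences ranged over -0.153 to 0.075 in KO1, 0.305 to 0.413 in KO2, -0.485 to -0.381 in KO3 and 0.409 to 0.508 in KO4. For KO minus WT, with clones left out as well, they ranged over -0.081 to 0.231.

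With the median of neighbours within 5 Mb subtracted, calls were 3 higher and 7 lower in KO1 and 2 lower in KO4. Of all 10640 genes tested this way, 1395, 1917 and 1061 were called in that order. The KO3 median was -0.251, and PARP12 in KO1 and SAMD9L in KO3 changed sign to 0.15 and 0.05 (adjusted p = 0.281 and 0.772). Of the calls of the fit without this step, 1 of 5 higher and 7 of 11 lower calls in KO1 were kept, 15 of 16 and 3 of 4 in KO2, 1 of 1 and 12 of 17 in KO3, and 9 of 15 and 2 of 5 in KO4. The share kept over all genes is not given here. Of the other interferon-stimulated genes, 2 of 55 were called lower in KO2 without a filter, against 2264 of all 13142 genes. With log2 RPKM above 1, 10 of 39 were called higher in KO4, against 928 of all 9747 genes. Members set apart numbered 0 in KO2 with a gap of 2 log2 units, on the log2(RPKM + 1) scale and after quantile normalization, and 0 in KO3 with the first 2 of these. Over all genes 45, 123 and 263 were set apart in KO2 and 38 and 50 in KO3. The cause was not tested.

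With a replicate block on the title numbers, 0 members were called in either direction, as were 0 of all tested genes. The numbers do not pair the samples, since same-numbered clones and WT samples deviated with correlations of 0.0597, 0.0663 and -0.0124. The other 279 values for whole lists were taken as unchanged: counts that were equal or stayed within 1.5 times, and medians that moved by less than an SD. That SD was 0.113 for a clone and 0.419 for the pooled comparison, so a median near 0 could change sign. The pooled median, 0.05 with all libraries, was -0.027 without KO2 and -0.081 without KO4. For single genes, 894 values kept their direction and their side of the threshold, while 74 lost their call. The depth of the libraries is unknown, so the counting error of low genes such as MX1 and IRF9 cannot be given.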
